A study of Homo sapiens with 9 samples.

Results

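Claudins are the membrane-spanning proteins that build the strands of the tight junction, the seal between neighbouring epithelial cells. The 7 claudin genes described here are CLDN1, CLDN2, CLDN3, CLDN4, CLDN7, CLDN12 and CLDN15. They were taken by their NCBI Gene IDs from the 28395 genes counted in every library. The list was drawn up with earlier results of these data known. All 7 were among the 16017 genes with enough counts to be tested. The accounts below take their sequence at the pore, their levels, the comparison of each dye with control, and the balance of barrier-forming and pore-forming members.

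RNA was sequenced from differentiated Caco-2 cells after 24 h with 10 µM carmine (3 libraries), with 20 µM carminic acid (3 libraries), or in culture medium with no addition (control, 3 libraries). Caco-2 is a human colorectal adenocarcinoma line that takes on an enterocyte-like form when kept confluent. All groups were wild type by genotype and were grown in 6-well plates in the same serum-supplemented medium. Carminic acid is the red glucosylated anthraquinone of the cochineal insect, and carmine is the aluminium lake made from it. Both are food colours. The stated concentrations differ, so compound and concentration cannot be told apart in the comparison of carmine with carminic acid. The study has 1 line, 1 time and 1 concentration of each dye, and the sources do not say that the libraries A, B and C of a group came from separate cultures. The p-values therefore measure the spread between these libraries, which may be technical.

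In the intestinal tight junction, each claudin carries loops that face the gap between the cells, and the first of these loops sets which ions can pass. CLDN1, CLDN3, CLDN4 and CLDN7 are known as sealing or barrier-forming claudins. CLDN2 forms a channel for small cations and water, and CLDN15 forms a sodium channel that serves sodium-coupled glucose uptake in the mouse small intestine. CLDN12 is counted in neither class here, since reports on its role differ.

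The stretch of coding sequence that codes for the signature of the first extracellular loop is shown because it separates the barrier-forming from the pore-forming members. The sequences run 5′ to 3′ on the coding strand, from the GENCODE v29 transcripts on GRCh38. They start at the codon before the leucine and tryptophan of the signature, and the codon that follows the second cysteine is in capitals.
CLDN1: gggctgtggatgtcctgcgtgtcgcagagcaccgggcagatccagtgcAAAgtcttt
CLDN3: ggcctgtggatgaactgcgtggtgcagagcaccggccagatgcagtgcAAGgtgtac
CLDN4: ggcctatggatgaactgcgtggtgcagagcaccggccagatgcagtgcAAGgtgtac
CLDN7: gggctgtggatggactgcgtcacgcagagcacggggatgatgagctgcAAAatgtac
CLDN2: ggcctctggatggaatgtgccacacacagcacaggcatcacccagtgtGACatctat
CLDN15: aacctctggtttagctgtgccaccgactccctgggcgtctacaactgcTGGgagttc
CLDN12: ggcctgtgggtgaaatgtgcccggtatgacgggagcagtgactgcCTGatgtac

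The 4 barrier-forming members have a lysine codon at that place, AAA in CLDN1 and CLDN7 and AAG in CLDN3 and CLDN4. CLDN2 has GAC, an aspartate codon, and in CLDN2 this acidic residue is known to line the cation channel. CLDN15 has TGG, a tryptophan codon, and CLDN12 has CTG, a leucine codon. The stretch is 54 bases long in CLDN12 and 57 bases long in each of the other 6.

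Each stretch lies within a single coding exon. On the forward strand it lies at chr7:73831346-73831402 for CLDN4, at chrX:106928373-106928429 for CLDN2 and at chr7:90412833-90412886 for CLDN12. On the reverse strand it lies at chr3:190322006-190322062 for CLDN1, chr7:73769852-73769908 for CLDN3, chr17:7261843-7261899 for CLDN7 and chr7:101237387-101237443 for CLDN15. CLDN3 and CLDN4 are neighbours on chromosome 7, each with all of its transcript in 1 exon.

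CLDN3 and CLDN4 also have the most alike coding sequences of the 21 pairs, with 73.9% identical positions. Over their whole transcripts, the longest shared run is 71 bases. The longest shared run of any other pair was 15 bases, for CLDN1 and CLDN7. The sources used here do not give how reads that fit several places were counted, and some reads could be split between CLDN3 and CLDN4. The strand setting is not given either, which bears on CLDN7, whose exons overlap those of ELP5 on the other strand, and on CLDN2, whose exons overlap those of RIPPLY1 on the other strand. ELP5 had 44.3 ± 10.4 CPM with carmine, 39.8 ± 1.54 CPM with carminic acid and 38.4 ± 1.41 CPM in control (mean ± SD, n = 3 each), and RIPPLY1 did not exceed 0.196 CPM in any library. CPM here means counts scaled to a common library size with factors from the trimmed mean of M-values (TMM). CLDN12 overlaps transcripts annotated to CDK14 and GTPBP10 on its own strand, and CLDN1 lies inside the span of CLDN16.

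The libraries held 54871018 to 57581301 counts each. The 7 claudins had between 1859 and 17781 counts in a library, for which counting error alone is 2.32% at the low end and 0.75% at the high end. Of the 10 enterocyte markers, 9 were at or above 1 CPM in every library, with summed levels of 5685 to 6394 CPM with carmine, 5733 to 6271 CPM with carminic acid and 5708 to 5988 CPM in control; KRT20 was at 0 throughout. Of the 4 goblet cell markers, MUC2 did not exceed 0.0357 CPM in any library, and FCGBP made up most of a sum that ran from 8.31 to 11.6 CPM with carmine, 10.2 to 12.1 CPM with carminic acid and 8.00 to 9.18 CPM in control. The enteroendocrine markers CHGA and NEUROD1 did not exceed 0.0179 CPM. The 7 stromal, endothelial and immune markers summed to 107 to 129.8 CPM with carmine, 114 to 145 CPM with carminic acid and 116 to 158 CPM in control, most of it COL1A1. Of the 7, 2 were at or above 1 CPM in every library, COL1A1 and PECAM1. Over the libraries PECAM1 had 9.77 to 12.5 CPM, VWF 0.806 to 1.36 CPM and CD3E 0.258 to 0.609 CPM. COL1A2 and DCN did not exceed 0.0534 CPM, and PTPRC did not exceed 0.0547 CPM. In bulk RNA, fewer cells of a type and less RNA per cell cannot be told apart.

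Carmine library C stood apart from the other libraries. On the first principal component of gene-centred log2 CPM it lay at 34.5, and the other 8 libraries lay between -19.4 and 14.5. Across 15202 genes, the deviation of a library from each gene's mean followed the GC content of the transcript with a Spearman rho of 0.51 in carmine library C, against -0.45 and -0.44 in carmine libraries A and B. Carminic acid libraries had rho values of 0.09, 0.57 and 0.20, and control libraries 0.07, -0.23 and -0.51. With transcript length, rho was 0.23, -0.08 and -0.39 in carmine libraries A, B and C, 0.25, -0.13 and -0.01 in the carminic acid libraries, and 0.16, 0.01 and 0.23 in the control libraries. The mitochondrial share of counts also moved with the groups, at 1.29%, 1.30% and 0.974% with carmine and 1.49%, 1.24% and 2.08% with carminic acid, against 1.94%, 2.51% and 2.43% in control, lowest in carmine library C, and its part in the claudin values was not tested. Genes of a library share its preparation, so these rho values are a description. Transcript GC content is 69.2% for CLDN3, 60.5% for CLDN4, 60.2% for CLDN15, 59.6% for CLDN7, 52.6% for CLDN2, 41.5% for CLDN1 and 38.1% for CLDN12. The part of GC content in the claudin values was not tested beyond a fit from which each library's trends with length and GC content were removed, and its values for the claudins are given with the results and drawn in the plot of fold changes.

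Per kb of transcript, the claudin repertoire was led by the barrier-forming members in every library. CLDN4, a sealing claudin of many epithelia, had 153 ± 21.0 CPM per kb with carmine, 153 ± 5.20 with carminic acid and 144 ± 3.75 in control. CLDN7, a claudin that also lies along the lateral membrane, had 101 ± 25.2, 95.7 ± 2.41 and 87.4 ± 0.660 CPM per kb in the same groups. CLDN1, which is essential to the skin barrier, had 38.3 ± 4.06 CPM per kb with carmine, 35.4 ± 3.26 with carminic acid and 34.4 ± 1.55 in control.

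CLDN3, the close relative of CLDN4, had 35.0 ± 9.31 CPM per kb with carmine, 36.5 ± 2.11 with carminic acid and 31.8 ± 2.04 in control. The libraries of CLDN1 and CLDN3 overlapped in all 3 groups, so these neighbours in the order do not differ beyond their spread. The pore-forming CLDN15 followed with 22.3 ± 2.74, 21.9 ± 1.41 and 19.4 ± 1.74 CPM per kb in those groups. CLDN12 had 15.5 ± 1.60 CPM per kb with carmine, 13.7 ± 1.06 with carminic acid and 14.9 ± 1.31 in control, and CLDN2 had 11.3 ± 0.503, 12.8 ± 0.699 and 12.5 ± 0.401 CPM per kb in the same groups. CLDN12 and CLDN2 overlapped with carminic acid and not with carmine or in control. Every other pair of neighbours in this order was apart in all 3 groups. The order also depends on the transcript length used, that of the longest annotated transcript, and was not redone with other lengths. As a share of the per-kb sum over the 7 members, CLDN4 made up 40.7% ± 0.414 with carmine, 41.5% ± 0.654 with carminic acid and 41.8% ± 0.587 in control, and CLDN2 made up 3.05% ± 0.504, 3.47% ± 0.273 and 3.64% ± 0.111.

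**Figure D1:**
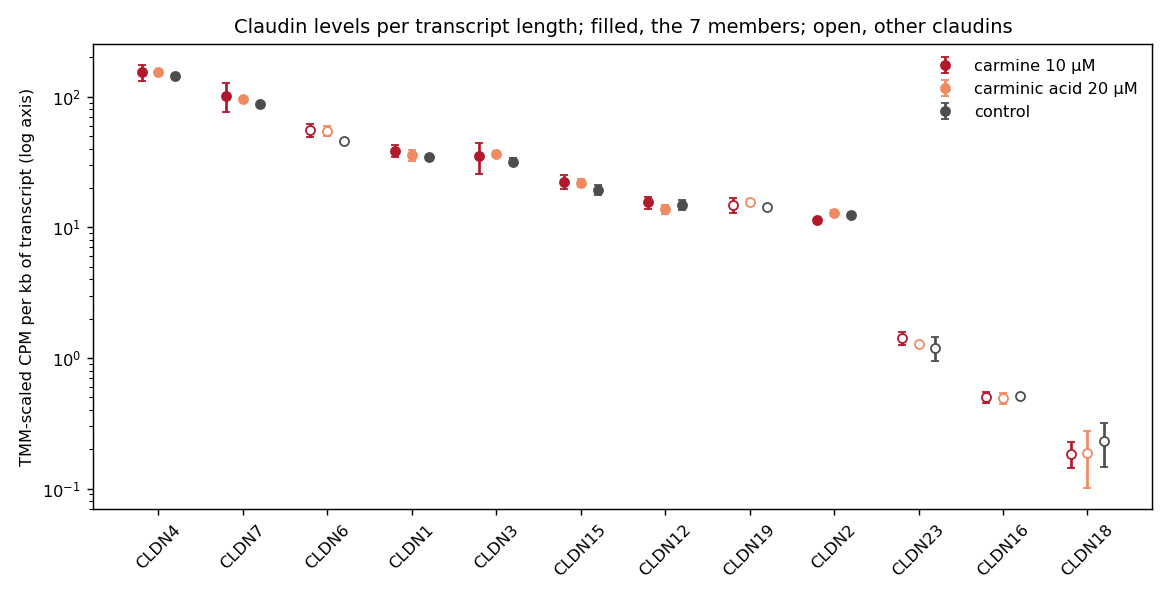
Levels of claudin genes as TMM-scaled CPM per kb of transcript on a log axis, with points for the mean and bars for the SD of 3 libraries in the carmine, carminic acid and control groups. Filled points are the 7 claudins described here and open points are other claudins that reached 1 CPM in at least 1 library; CLDN4 is highest at 144 CPM per kb in control, and of the filled points CLDN2 is lowest at 12.5.

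With carmine, none of the 7 claudins passed the test against control (edgeR's quasi-likelihood test with Benjamini-Hochberg adjustment over all 16017 genes, threshold 0.05; adjusted p from 0.464 to 0.842). The share of all genes called was 0%. At an unadjusted p under 0.05 there were 0 claudins, where 11.0% of all genes were under it. The log2 fold change was positive for 6 of 7, with a median of 0.14 against 0.007 over all tested genes. The largest value, that of CLDN7, was 1.15-fold, and the widest 95% interval, that of CLDN3, ran from -0.16 to 0.44 in log2. DESeq2 and limma-voom called 0 of the 7 as well.

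CLDN2, the cation and water channel, was the only member with a negative fold change. It had 37.0, 35.7 and 33.9 CPM in the carmine libraries, against 38.5, 40.9 and 39.1 CPM in the control libraries. All 3 carmine libraries lay below all 3 control libraries. This gave a log2 fold change of -0.15 (SE 0.0770, 95% interval -0.32 to 0.01), and edgeR's adjusted p was 0.464. CLDN2 was the 1 member of 7 whose groups did not overlap downward, where 7.67% of all genes did so, and 0 members were apart upward, where 7.32% of all genes were. With the trends removed the value was -0.13, and without carmine library C it was -0.12.

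CLDN15, the sodium channel-forming claudin, had 49.0, 41.0 and 52.4 CPM in the carmine libraries, against 45.5, 40.3 and 38.4 CPM in control. Carmine libraries A and C were higher than every control library, and carmine library B lay among them. Its log2 fold change was 0.20 (SE 0.0995, 95% interval -0.02 to 0.41) with an adjusted p of 0.466 in edgeR, so the values of the pore-forming pair, CLDN2 and CLDN15, had opposite signs.

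Of the barrier-forming members, CLDN7 had 164, 167 and 249 CPM in the carmine libraries, against 168, 169 and 167 CPM in control. Carmine library C was far above all others, and carmine libraries A and B lay within or below the control range. CLDN7 thus had a log2 fold change of 0.20 (SE 0.125, 95% interval -0.07 to 0.47) with an adjusted p of 0.545 in edgeR. Its neighbour on the other strand, ELP5, was also highest in a carmine library, at 56.2 CPM.

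CLDN3 had 35.9, 39.7 and 58.1 CPM in the carmine libraries, against 42.9, 40.7 and 37.8 CPM in control. CLDN4 had 256, 259 and 324 CPM in the carmine libraries, against 264, 271 and 257 CPM in control. For both genes carmine library C was the highest of the 6, and carmine libraries A and B lay within or below the control range. The log2 fold changes were 0.14 for CLDN3 and 0.08 for CLDN4, with adjusted p-values of 0.717 and 0.721 in edgeR.

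The positive values of these 3 genes rest on carmine library C. Without it, the log2 fold changes were -0.09 for CLDN3, -0.03 for CLDN4 and -0.02 for CLDN7. CLDN1 went the other way within the carmine group, with 148, 133 and 119 CPM, against 122, 114 and 124 CPM in control. Its carmine libraries A and B were above every control library and library C was among them. The log2 fold change of CLDN1 was 0.15 (95% interval -0.03 to 0.34, adjusted p = 0.512 in edgeR), and 0.23 without carmine library C.

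CLDN12 had 60.1, 56.4 and 48.9 CPM in the carmine libraries, against 47.7, 55.6 and 55.9 CPM in control. The groups overlapped throughout, and the log2 fold change was 0.06 (95% interval -0.15 to 0.26, adjusted p = 0.842 in edgeR). With the trends removed, the intervals of CLDN1, CLDN7 and CLDN15 did not include 0. Their log2 fold changes were then 0.18, 0.15 and 0.17, and their adjusted p-values 0.108, 0.206 and 0.162 in edgeR. CLDN3 and CLDN4 stood at -0.02 and 0.04, and CLDN12 at 0.08. None of the 7 passed the adjusted threshold in that fit either, in which 371 of 15202 genes did. The share of all genes with an interval that leaves out 0 in that fit is not given here. The count of such claudins is therefore a description.

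**Figure D2:**
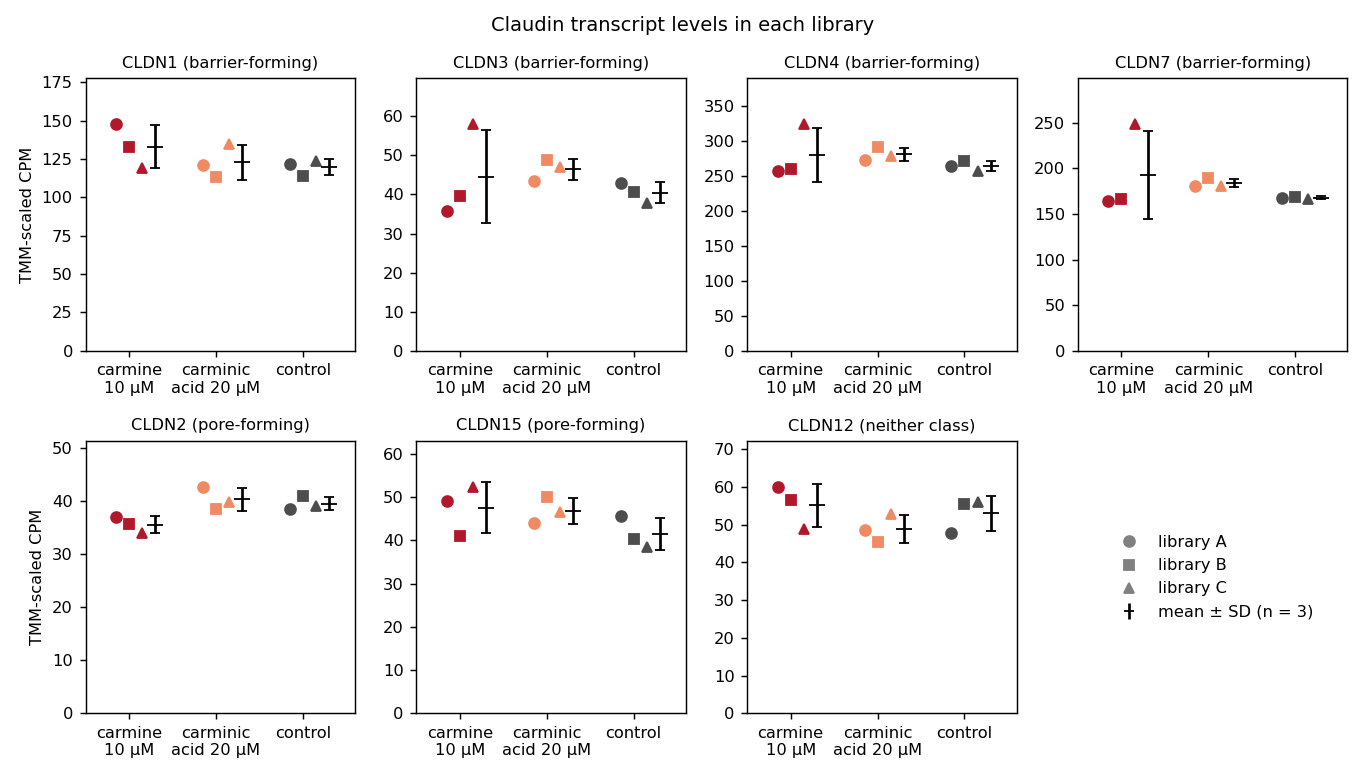
TMM-scaled CPM of the 7 claudins in each library, from left to right in the carmine, carminic acid and control groups, with circles for library A, squares for B and triangles for C, and mean ± SD of 3 libraries beside them. The carmine triangle is the highest point for CLDN3 (58.1), CLDN4 (324), CLDN7 (249) and CLDN15 (52.4), and the carmine points of CLDN2 lie below those of both other groups.

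With carminic acid, again 0 of the 7 passed against control (edgeR, adjusted p from 0.717 to 0.924), and 0% of all genes were called. No claudin had an unadjusted p under 0.05, against 6.43% of all genes, and DESeq2 and limma-voom called 0 of the 7. The log2 fold change was positive for 6 of 7, with a median of 0.09 against -0.008 over all genes. For 3 members, CLDN3, CLDN4 and CLDN7, all 3 carminic acid libraries lay above all 3 control libraries, where 12.0% of all genes did so; 0 members were apart downward, where 8.82% of all genes were.

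CLDN7 had 181, 189 and 181 CPM in the carminic acid libraries, against 168, 169 and 167 CPM in control. The control libraries of CLDN7 were the tightest group of any member, with a coefficient of variation of 0.755%. Its log2 fold change was 0.13 (SE 0.125, 95% interval -0.14 to 0.40) and edgeR's adjusted p was 0.778. The fit takes its spread from all 9 libraries, carmine library C included. With only the 6 libraries compared, edgeR's adjusted p was 0.214 for CLDN7. Over the 7 members it ran from 0.148 for CLDN3 to 0.861 for CLDN2. That fit called 49 genes and 0 of the 7 claudins.

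CLDN3 had 43.5, 48.8 and 47.1 CPM with carminic acid, against 42.9, 40.7 and 37.8 CPM in control. CLDN4 had 272, 291 and 278 CPM with carminic acid, against 264, 271 and 257 CPM in control. In both, the lowest carminic acid library was within 2 CPM of the highest control library. Log2 fold changes were 0.20 for CLDN3 (95% interval -0.10 to 0.50, adjusted p = 0.730 in edgeR) and 0.09 for CLDN4 (95% interval -0.10 to 0.27, adjusted p = 0.783 in edgeR). With each library's trends removed, the values were 0.09 for CLDN3, 0.02 for CLDN4 and 0.07 for CLDN7.

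CLDN15 had 43.9, 49.9 and 46.4 CPM with carminic acid, against 45.5, 40.3 and 38.4 CPM in control. Carminic acid library A was below the highest control library, so the groups overlapped, and the log2 fold change was 0.17 (95% interval -0.04 to 0.39, adjusted p = 0.717 in edgeR), and 0.11 with the trends removed. CLDN2 had 42.7, 38.4 and 39.7 CPM with carminic acid, against 38.5, 40.9 and 39.1 CPM in control. These groups overlapped throughout, with a log2 fold change of 0.03 (95% interval -0.14 to 0.19), and 0.02 with the trends removed.

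CLDN1 had 121, 113 and 135 CPM with carminic acid, against 122, 114 and 124 CPM in control. CLDN12 had 48.6, 45.3 and 52.8 CPM with carminic acid, against 47.7, 55.6 and 55.9 CPM in control. Both overlapped with control, and CLDN12 was the 1 member with a negative value. Log2 fold changes were 0.04 for CLDN1 (95% interval -0.15 to 0.23) and -0.12 for CLDN12 (95% interval -0.32 to 0.09), with adjusted p-values of 0.903 and 0.748 in edgeR. With the trends removed the value of CLDN12 was 0.03 and that of CLDN1 was 0.14, with an adjusted p of 0.542 in edgeR. CLDN1 was then the 1 member with an unadjusted p under 0.05. The share of all genes under it in that fit is not given here, and 4 of 15202 genes passed the adjusted threshold.

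**Figure D3:**
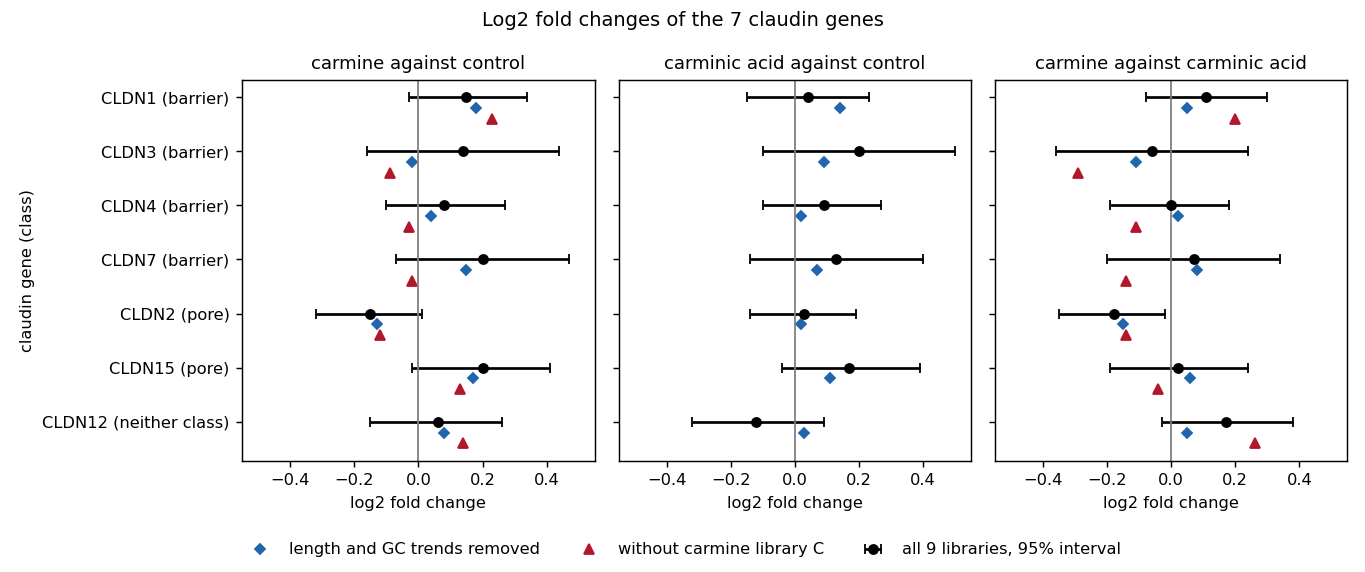
Log2 fold changes of the 7 claudins for each dye set against control and for the dyes set against each other, as black points with 95% intervals from all 9 libraries. Blue diamonds are the values after removal of each library's trends with transcript length and GC content and red triangles those without carmine library C, where CLDN3 lies at -0.09 in the left panel, against 0.14 with all libraries.

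The 1 pair of dyes was compared directly, at concentrations that differ. None of the 7 claudins passed (edgeR, adjusted p from 0.524 to 0.994), 0.00624% of all genes were called, and DESeq2 and limma-voom called 0 of the 7. CLDN2 was the 1 member with an unadjusted p under 0.05, where 8.90% of all genes were under it. It had 37.0, 35.7 and 33.9 CPM with carmine, against 42.7, 38.4 and 39.7 CPM with carminic acid, and the groups did not overlap. Between the dyes its log2 fold change was -0.18 (SE 0.0770, 95% interval -0.35 to -0.02, adjusted p = 0.524 in edgeR). CLDN2 was the 1 member apart downward, where 6.01% of all genes were, and 0 members were apart upward, where 7.09% of all genes were.

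The other 6 overlapped between the dyes. Their log2 fold changes were 0.17 for CLDN12 (95% interval -0.03 to 0.38), 0.11 for CLDN1 (-0.08 to 0.30), 0.07 for CLDN7 (-0.20 to 0.34), 0.02 for CLDN15 (-0.19 to 0.24), -0.004 for CLDN4 (-0.19 to 0.18) and -0.06 for CLDN3 (-0.36 to 0.24). The widest intervals, as folds, ran from 0.778 to 1.18 for CLDN3 and from 0.872 to 1.27 for CLDN7. With the trends removed, the values were -0.15 for CLDN2 (adjusted p = 0.506 in edgeR), 0.05 for CLDN12, 0.05 for CLDN1, 0.08 for CLDN7, 0.06 for CLDN15, 0.02 for CLDN4 and -0.11 for CLDN3, and none passed. Without carmine library C, CLDN3 was called lower with carmine, at -0.29 (adjusted p = 0.0423 in edgeR). In that fit 685 genes were called, against 1 in the fit of all 9 libraries, and the values of CLDN7, CLDN4, CLDN2 and CLDN12 were -0.14, -0.11, -0.14 and 0.26. Over all alternatives the adjusted p of CLDN3 in this comparison ran from 0.0423 to 0.992.

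The balance between the classes was taken within each library, as the per-kb sum of CLDN2 and CLDN15 over that of CLDN1, CLDN3, CLDN4 and CLDN7. Such a ratio does not depend on how libraries are scaled. It can still follow each library's trends with length and GC content, which were not removed from it. Pore-forming transcripts were 11.8%, 10.3% and 9.15% of barrier-forming ones in the carmine libraries. They were 11.0%, 10.9% and 10.7% in the carminic acid libraries and 11.2%, 10.6% and 10.4% in the control libraries. The carmine libraries held both the highest and the lowest ratio of the 9, and the carminic acid libraries lay within the control range.

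Means were 10.4% ± 1.31 with carmine, 10.8% ± 0.142 with carminic acid and 10.7% ± 0.400 in control. On the log2 scale, carmine differed from control by -0.05, less than the SD within the carmine group of 0.182. Carminic acid differed from control by 0.01, less than the SD of 0.019 with carminic acid and of 0.0534 in control. Without carmine library C, the difference of carmine from control was 0.03. Summed barrier-forming levels were 327 ± 51.9 CPM per kb with carmine, 321 ± 8.24 with carminic acid and 298 ± 4.69 in control. Carmine libraries A and B, at 295 and 298, lay within the control range of 292 to 300.4, and carmine library C stood at 386, while the carminic acid libraries, at 312 to 328, were all above control. Summed pore-forming levels were 33.6 ± 2.61 CPM per kb with carmine, 34.7 ± 0.778 with carminic acid and 32.0 ± 1.59 in control.

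The members of the pore-forming class did not share a pattern. The per-kb ratio of CLDN15 to CLDN2 was 1.96, 1.70 and 2.29 in the carmine libraries, 1.52, 1.92 and 1.73 in the carminic acid libraries, and 1.75, 1.46 and 1.45 in the control libraries. Carmine library B lay within the control range, and libraries A and C lay above it. With CLDN2 as the only pore-forming member, its log2 ratio to the barrier-forming sum was -4.85 ± 0.281 with carmine, -4.65 ± 0.115 with carminic acid and -4.57 ± 0.0453 in control. The per-kb ratio of CLDN4 to CLDN2 was 11.9, 12.5 and 16.5 with carmine. It was 11.0, 13.0 and 12.0 with carminic acid, against 11.8, 11.4 and 11.3 in control. All 3 carmine libraries were above the control libraries, A only just, and carmine library C was far above the rest. The share of all gene pairs that part the groups in this way is not given here, so this is a description. The per-kb ratios of CLDN4 to CLDN3 and of CLDN7 to CLDN1 were also taken, and in both the carmine and control libraries overlapped.

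**Figure D4:**
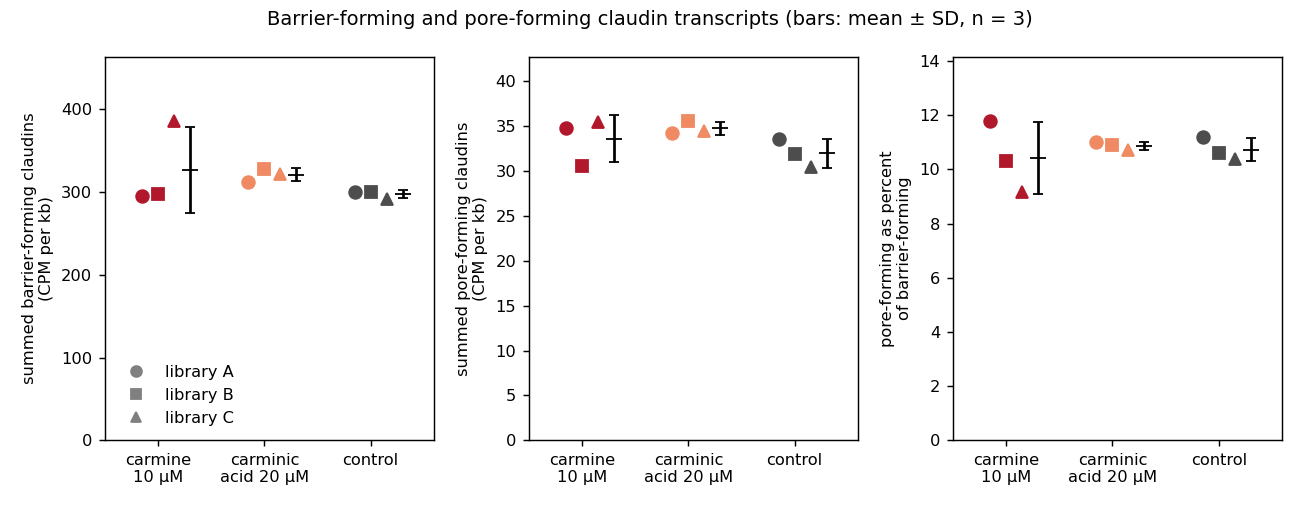
Summed per-kb levels of the barrier-forming claudins (left), of the pore-forming claudins (centre) and the pore-forming sum as a percentage of the barrier-forming sum (right), per library, from left to right in the carmine, carminic acid and control groups, with mean ± SD of 3 libraries. Carmine library C (triangle) has the highest barrier-forming sum, 386 CPM per kb, and the lowest percentage, 9.15%.

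By how they varied over the 9 libraries, genes were set beside the most abundant member of each class. The measure was the root mean square difference of gene-centred log2 CPM, over 9912 genes. Closest to CLDN4 were F2 (0.0225), the prothrombin gene, TRIM28 (0.0262), a chromatin corepressor gene, and PCK2 (0.0277), which codes for the mitochondrial phosphoenolpyruvate carboxykinase. The median gene stood at 0.141. Among the members, CLDN7 was closest to CLDN4 (0.0833), followed by CLDN3 and CLDN15 (0.106 each). CLDN2 (0.165), CLDN1 (0.19) and CLDN12 (0.207) were farther than the median gene. The log2 CPM used here still held each library's trends with length and GC content, whose part in the likeness was not tested. Closest to CLDN15 were CNPPD1 (0.0431), ZBTB7A (0.0450), a zinc finger repressor gene, and EFNB1 (0.0474), which codes for an ephrin ligand, with the median gene at 0.175.

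**Figure D5:**
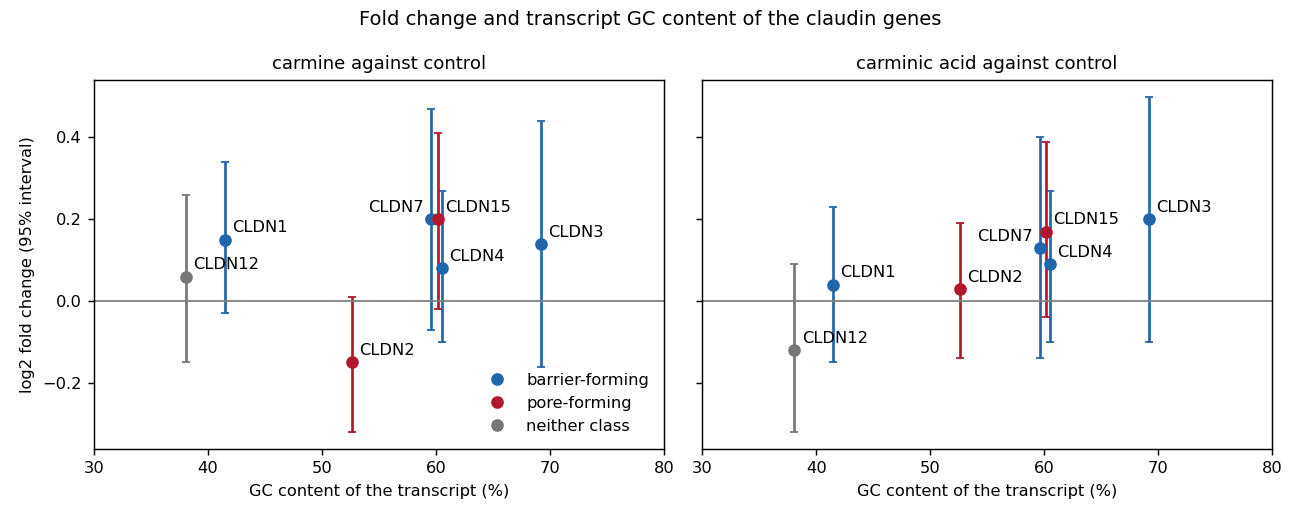
Log2 fold change with its 95% interval on the vertical axis against the GC content of the transcript in percent on the horizontal axis, for carmine against control (left) and carminic acid against control (right), 1 point for each of the 7 claudins. With carminic acid, the GC-poorest CLDN12 (38.1%) is lowest at -0.12 and the GC-richest CLDN3 (69.2%) is highest at 0.20; with carmine, CLDN2 is lowest at -0.15.

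Of the 17 other claudins in the count files, 8 could be tested and 5 reached 1 CPM in a library. In edgeR 0 of the 8 passed in any comparison, and at an unadjusted p under 0.05 there were 2 with carmine and 1 with carminic acid against control, and 0 between the dyes, where 11.0%, 6.43% and 8.90% of all genes were under it. CLDN6, a claudin best known from embryonic epithelia, came next after CLDN4 and CLDN7 by level per kb, at 45.5 ± 0.783 CPM per kb in control. It had 70.2, 71.6 and 85.0 CPM with carmine and 67.0, 79.3 and 76.6 CPM with carminic acid, against 63.5, 61.8 and 61.5 CPM in control. All libraries of both dyes lay above all control libraries, as for 7.32% of all genes with carmine and 12.0% with carminic acid. The log2 fold change was 0.28 with carmine (95% interval 0.09 to 0.47, adjusted p = 0.371 in edgeR) and 0.26 with carminic acid (95% interval 0.07 to 0.44, adjusted p = 0.717 in edgeR). Both comparisons use the same control libraries. With the trends removed, CLDN6 passed with carmine at 0.24 (adjusted p = 0.0295 in edgeR) and not with carminic acid (0.20, adjusted p = 0.281 in edgeR). It passed with carmine again when the replicate block was added to that fit (adjusted p = 0.0168 in edgeR). For carmine against control these fits called 371 and 704 genes.

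CLDN19, the partner of CLDN16 in kidney tubules, had 52.1 ± 6.65 CPM with carmine, 55.3 ± 2.41 CPM with carminic acid and 50.1 ± 1.26 CPM in control. Its carminic acid libraries lay above all control libraries, as for 12.0% of all genes, and its carmine libraries overlapped with control. CLDN23 had 3.09 ± 0.370, 2.76 ± 0.0834 and 2.61 ± 0.548 CPM in the same groups. CLDN16 did not exceed 1.80 CPM and CLDN18 reached 1.08 CPM in 1 library; neither passed in edgeR in any comparison. The other claudins did not exceed 0.806 CPM, and 3 of them, CLDN10, CLDN22 and CLDN25, had no count in any library. CLDN20, with the smallest p of the other claudins for carmine against carminic acid, had 0.275 ± 0.134 CPM with carmine, against 0.148 ± 0.0742 CPM with carminic acid, and the groups overlapped.

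The genes whose products work beside claudins were read from 4 further lists. Their counts at an unadjusted p under 0.05, given below, stand against 11.0%, 6.43% and 8.90% of all genes for carmine and carminic acid against control and for carmine against carminic acid. In edgeR 0 of their tested members passed in any comparison. The signs stand against 8276, 7706 and 8191 positive values among all 16017 genes in the same order, with medians of 0.007, -0.008 and 0.005. The counts of signs were not redone with the trends removed, and are a description. Among other membrane proteins of the tight junction, 13 of 14 were tested; the log2 fold change was positive for 10 with carmine and 9 with carminic acid against control (medians 0.07 and 0.05). The smallest p-values were those of angulins, proteins of the tricellular junction, at low levels: ILDR2 with 0.202 ± 0.110 CPM with carmine, against 0.443 ± 0.0663 CPM in control, and ILDR1 with 0.849 ± 0.0315 CPM with carminic acid, against 0.509 ± 0.184 CPM in control. In the comparison of carmine with carminic acid, 6 of 13 were positive (median -0.03), and ILDR2 again had the smallest p. At an unadjusted p under 0.05 there were 2 of the 13 with carmine, 1 with carminic acid and 1 between the dyes.

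The scaffold proteins that hold claudins to the cytoskeleton are coded by 20 genes, all tested. Against control, 5 of 20 were positive with carmine (median -0.06) and 14 of 20 with carminic acid (median 0.05). Carmine against carminic acid gave 3 of 20 positive (median -0.08). In the same order, 2, 1 and 5 of the 20 had an unadjusted p under 0.05 in edgeR. CGN, the gene of the scaffold protein cingulin, had 353, 374 and 393 CPM with carmine, against 430, 465 and 435 CPM with carminic acid. The groups were apart, as for 6.01% of all genes downward. The log2 fold change of CGN was -0.25 (95% interval -0.40 to -0.10, adjusted p = 0.389 in edgeR). Without carmine library C CGN was called at -0.28 (adjusted p = 0.0277 in edgeR), in a fit that called 685 genes. With the trends removed the value of CGN was -0.14 (adjusted p = 0.344 in edgeR). PARD6B, a polarity protein gene, had 98.5 ± 13.3 CPM with carmine, against 83.6 ± 4.80 CPM in control, a log2 fold change of 0.24 (adjusted p = 0.401 in edgeR). PARD6B passed with the trends removed (0.28, adjusted p = 0.0199 in edgeR), in a fit that called 371 of 15202 genes. AMOTL2, the angiomotin-like gene with the smallest p in this list with carminic acid, had 480.2 ± 25.8 CPM there, against 428 ± 15.3 CPM in control (0.17, adjusted p = 0.717 in edgeR).

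Claudin-binding proteins, proteases and kinases gave 13 tested genes, of which 9 were positive with carmine and 7 with carminic acid against control (medians 0.09 and 0.04), and 5 for carmine against carminic acid (median -0.04). In edgeR 1, 3 and 2 of the 13 were under an unadjusted p of 0.05 in these comparisons. TSPAN8, a tetraspanin gene, had 56.4, 57.8 and 58.5 CPM with carmine and 48.2, 45.8 and 49.5 CPM with carminic acid, against 50.5, 51.9 and 49.5 CPM in control. The carmine libraries were above all others, where 7.32% of all genes were apart upward from control and 7.09% from carminic acid. Its log2 fold change was 0.19 against control (adjusted p = 0.393 in edgeR) and 0.27 against carminic acid (adjusted p = 0.341 in edgeR). The value against carminic acid passed with DESeq2 (adjusted p = 0.0259), which called 79 genes. It also passed without carmine library C (adjusted p = 0.0366 in edgeR), where 685 genes were called. With the trends removed the value of TSPAN8 against carminic acid was 0.12 (adjusted p = 0.544 in edgeR). PRSS8, the gene of a membrane protease of the matriptase cascade, had 478 ± 22.8 CPM with carminic acid, against 414 ± 16.5 CPM in control (0.21, adjusted p = 0.717 in edgeR), and 0.13 on the log2 scale with the trends removed.

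Of 15 transcription factors known to act on claudin genes, 12 were tested. Against control, 6 of 12 were positive with carmine (median -0.01) and 9 of 12 with carminic acid (median 0.09), and 1 of 12 was positive for carmine against carminic acid (median -0.07). At an unadjusted p under 0.05 there were 0, 0 and 1 of the 12 in edgeR. CDX2, the intestinal homeobox factor, had 217 ± 31.9 CPM with carmine, against 193 ± 11.1 CPM in control (0.17, adjusted p = 0.527 in edgeR). HNF4A, the nuclear receptor of the enterocyte program, had 1050.0 ± 13.8 CPM with carmine, against 1183 ± 41.1 CPM with carminic acid (-0.17, adjusted p = 0.479 in edgeR). The groups of HNF4A did not overlap, as for 6.01% of all genes downward, and its value was -0.07 with the trends removed (adjusted p = 0.730 in edgeR). Neither CDX2 nor HNF4A passed in edgeR in any comparison.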

How the data were processed

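The authors deposited raw counts by NCBI Gene ID, 1 file per library. Per the file headers, HISAT2 made the alignments. The submitters' processing notes name FastQC, HISAT and featureCounts, with the genome build hg38 but no tool versions. For the strand setting, the annotation and reads that fit several places, the settings were not given in the sources used here. The members, lists and classes were chosen with earlier results of these data known.

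In R 4.3.3 with edgeR 4.0.16, all 9 libraries entered 1 quasi-likelihood model (robust, TMM factors, filterByExpr by group, no covariate), with 3 two-sided contrasts and Benjamini-Hochberg adjustment over 16017 genes at a threshold of 0.05. The biological coefficient of variation was 10.9%. limma 3.58.1 (voom) and DESeq2 1.42.0 were alternatives. The edgeR steps were tested on simulated data. Transcript length and GC content came from the longest GENCODE v29 transcript of a gene, and coding stretches from the transcript with the longest open reading frame. Trends were fitted with splines of 4 degrees of freedom and removed per library. Named genes were all 7 members, other claudins reaching 1 CPM, the gene with the smallest p of each list in each comparison, and the 3 genes closest in pattern to the most abundant member of each class (average log2 CPM at least 3). 1 gene that this rule names is not reported here. Within each group, no library was a copy of another (chi-square per degree of freedom at least 9.51). Pairs of libraries from different groups were not checked.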

Additional observations from a re-analysis of the deposited data

How the results depend on the processing

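With 0 of the 7 claudins called against control under every alternative run, the calls did not move, and for carmine against carminic acid 1 was called, CLDN3, without carmine library C only. The count of all genes called did move; the cause was not tested. For carmine against control (0 as reported) it was 7 with DESeq2's size factors, 7 with library size alone, 19 with no filter, 371 with the trends removed, 79 with DESeq2, 43 with limma-voom, 12 with only the 6 libraries compared, and 1 to 36 with 1 library left out, 36 without carmine library C. For carminic acid against control (0) it was 2 with no filter, 4 with the trends removed, 8 with DESeq2, 34 with limma-voom, 49 with only the 6 libraries compared, and 0 to 1 with 1 library left out. For carmine against carminic acid (1) it was 2 with DESeq2's size factors, 2 with library size alone, 9 with no filter, 9 with the trends removed, 79 with DESeq2, 13 with limma-voom, and 0 to 685 with 1 library left out, 685 without carmine library C.

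The letters A, B and C are not said to mark a shared batch. Same-letter correlations of the deviations from the group means ran from -0.149 to 0.095. These deviations still held each library's trends with length and GC content, so they cannot decide whether the letters pair the libraries. With the letter as a replicate block, 0, 0 and 0 genes were called in the 3 comparisons. With the replicate block and the trends removed it was 704, 4 and 30, against 371, 4 and 9 with the trends removed alone.

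Of the claudin fold changes, 1 or more alternatives changed the sign of those that follow, none of which was called with all 9 libraries in edgeR. For carmine against control these were CLDN3 (-0.0186 with the trends removed, -0.0201 with the block added, -0.0153 with limma-voom, -0.0941 to 0.27 with 1 library left out), CLDN4 (-0.0096 with limma-voom, -0.0315 to 0.14 with 1 left out), CLDN7 (-0.0179 to 0.31) and CLDN12 (-0.0175 to 0.14, and -0.0095 without carmine library A). For carminic acid against control they were CLDN12 (0.0286 with the trends removed, 0.0282 with the block added), CLDN1 (-0.0406 to 0.10 with 1 left out) and CLDN2 (-0.0220 to 0.0601). For carmine against carminic acid they were CLDN4 (0.0043 with no filter, 0.0196 with the trends removed, 0.0196 with the block added, 0.0001 with DESeq2, -0.1136 to 0.0564 with 1 left out, with 0.0502 and 0.0242 without carmine library B and carminic acid library B), CLDN3 (-0.2884 to 0.0740 with 1 left out, 0.0161 without carmine library B), CLDN7 (-0.0870 with limma-voom, -0.1444 to 0.18) and CLDN15 (-0.0600 with limma-voom, -0.0432 to 0.12, and -0.0128 without carminic acid library A). The log2 balance moved with CLDN2 as the only pore-forming member, to -0.2758 for carmine against control, -0.0798 for carminic acid against control and -0.1960 for carmine against carminic acid, and to -0.0592 for carminic acid against control with CLDN12 counted as pore-forming. With 1 library left out, the balance of carmine against control ran from -0.1469 to 0.0346. Counting error of the claudin values was 0.75% to 2.32%, and the coefficient of variation within a group was 0.755% to 26.6%. The lower ends belong to different genes. The 0.75% is that of CLDN4 at 17781 counts, and the 0.755% that of CLDN7 in control, at 9401 to 9569 counts a library. Counting error is larger at fewer counts, so the spread of CLDN7 in control is not shown to exceed it.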
